A study of Homo sapiens with 8 samples.

Results

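The genes described here are those that encode the proteasome and the proteins that assemble or activate it. They were found as symbols that start with PSMA, PSMB, PSMC, PSMD, PSME, PSMF or PSMG followed by a digit. The count table held 74 such names, of which 20 pseudogenes and 5 antisense names were left out, so that 49 of the 38173 listed symbols were members. Of these, 47 had enough reads to be tested. PSMA8, a testis alpha subunit, had at most 1 count in any library, and PSMB11, the thymus catalytic subunit, at most 2, and neither was tested. PSMC3IP matched by name alone: it encodes a meiotic recombination factor that binds PSMC3 and is no subunit. The members were contrasted as 5 inducible genes, PSMB8, PSMB9, PSMB10, PSME1 and PSME2, and 44 others, of which 42 were tested.

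The data were poly(A) RNA libraries of MH7A, 1 immortalised line from the synovium of rheumatoid arthritis that stands in for fibroblast-like synoviocytes. Mock cells were either left as normal, per the design text, or given DMSO, per the treatment labels. The other groups received tumour necrosis factor (TNF) for 24 h, TNF and Tubuloside B (Tub B) together for 24 h, or Tub B alone for 24 h, with Tub B at 60 µM. The TNF dose is stated as 20 ng/mL by the design text and per microlitre by the labels. Tubuloside B is a plant phenylethanoid glycoside, and the series asks how it acts on TAK1, a kinase between the TNF receptor and NF-κB. Each of the 4 groups held 2 libraries. Separate cultures are not stated for them in the labels, so the p-values reflect a spread between libraries that may be technical alone.

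The proteasome is the protease that degrades ubiquitin-tagged proteins. Its 20S core is a barrel of rings of alpha and beta subunits. PSMB5, PSMB6 and PSMB7 encode the beta subunits that cut peptide bonds in most cells. In cells exposed to inflammatory cytokines, newly built cores carry PSMB8, PSMB9 and PSMB10 in their place, and the particle is then called the immunoproteasome. PSME1 and PSME2 encode the PA28 alpha and beta subunits of the 11S cap, which opens the core and favours release of peptides suited to MHC class I molecules. The 19S cap, made of PSMC ATPases and PSMD subunits, binds and unfolds ubiquitinated proteins.

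The stretches of the genome around the starts of the inducible genes are shown because interferon-regulated and NF-κB-regulated genes often carry short elements there. The windows run from 250 bases before to 50 bases after a gene's start and come from RefSeq with build GRCh38.p14. That table held 43 of the 49 members. Each is printed 5′ to 3′ on the gene's own strand. For a gene with 2 windows, the one with more matches to the elements marked below was printed, or else the first listed. Capitals mark 2 kinds of match on either strand: GAAA followed after any 2 bases by GAAA, a simple form of the interferon-stimulated response element, and the κB site. The PSMB8 window (chr6:32843998-32844297, minus strand, 1 of 2 for this gene), the PSMB9 window (chr6:32853942-32854241, plus strand) and the TAP1 window (chr6:32853655-32853954, minus strand, 1 of 2) lie within the MHC region. TAP1, which encodes a subunit of the class I peptide transporter, is no member and starts head to head with PSMB9, so that their windows share 13 bases. The others are PSMB10 (chr16:67936801-67937100, minus strand), PSME1 (chr14:24135944-24136243, plus strand), PSME2 (chr14:24146561-24146860, minus strand) and the constitutive PSMB5 (chr14:23035171-23035470, minus strand, 1 of 2).
PSMB8: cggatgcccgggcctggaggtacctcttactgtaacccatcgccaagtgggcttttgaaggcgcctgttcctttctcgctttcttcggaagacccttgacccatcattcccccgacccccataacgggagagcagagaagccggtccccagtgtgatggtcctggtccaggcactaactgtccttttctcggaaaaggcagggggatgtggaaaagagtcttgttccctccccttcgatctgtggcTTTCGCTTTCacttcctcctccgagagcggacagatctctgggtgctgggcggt
PSMB9: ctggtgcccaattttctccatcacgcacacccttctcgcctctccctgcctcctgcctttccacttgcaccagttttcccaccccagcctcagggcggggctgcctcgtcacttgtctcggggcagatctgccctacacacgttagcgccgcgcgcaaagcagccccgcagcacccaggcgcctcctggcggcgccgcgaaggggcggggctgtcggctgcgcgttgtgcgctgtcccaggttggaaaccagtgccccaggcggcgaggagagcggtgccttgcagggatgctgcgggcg
TAP1: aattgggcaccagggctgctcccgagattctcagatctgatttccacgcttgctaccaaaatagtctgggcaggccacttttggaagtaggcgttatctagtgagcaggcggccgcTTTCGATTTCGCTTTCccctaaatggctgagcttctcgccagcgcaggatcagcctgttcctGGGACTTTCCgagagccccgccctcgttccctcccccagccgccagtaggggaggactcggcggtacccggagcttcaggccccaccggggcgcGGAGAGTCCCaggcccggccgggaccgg
PSMB10: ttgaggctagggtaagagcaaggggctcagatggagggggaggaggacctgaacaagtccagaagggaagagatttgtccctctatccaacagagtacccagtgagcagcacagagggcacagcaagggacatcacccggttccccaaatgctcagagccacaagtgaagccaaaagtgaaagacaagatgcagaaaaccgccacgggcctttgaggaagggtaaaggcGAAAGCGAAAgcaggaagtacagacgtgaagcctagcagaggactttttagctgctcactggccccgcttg
PSME1: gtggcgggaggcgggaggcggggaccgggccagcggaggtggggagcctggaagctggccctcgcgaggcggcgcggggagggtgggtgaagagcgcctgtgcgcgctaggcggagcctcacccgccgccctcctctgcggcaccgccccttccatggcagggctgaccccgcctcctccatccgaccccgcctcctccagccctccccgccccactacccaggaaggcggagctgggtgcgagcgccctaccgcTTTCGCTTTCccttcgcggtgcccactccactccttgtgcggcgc
PSME2: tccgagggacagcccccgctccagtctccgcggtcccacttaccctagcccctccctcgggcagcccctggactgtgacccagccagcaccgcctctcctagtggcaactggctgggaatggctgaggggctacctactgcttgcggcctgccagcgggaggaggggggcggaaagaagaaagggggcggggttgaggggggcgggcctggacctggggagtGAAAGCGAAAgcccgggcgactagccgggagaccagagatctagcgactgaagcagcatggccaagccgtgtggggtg
PSMB5: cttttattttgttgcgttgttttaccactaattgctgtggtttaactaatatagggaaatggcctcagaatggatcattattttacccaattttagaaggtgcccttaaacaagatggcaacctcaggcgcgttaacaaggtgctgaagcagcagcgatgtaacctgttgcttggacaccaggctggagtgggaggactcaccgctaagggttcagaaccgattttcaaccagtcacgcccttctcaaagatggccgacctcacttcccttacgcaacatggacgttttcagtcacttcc

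The interferon element was present in the windows of 4 of the 5 inducible genes, PSMB8, PSMB10, PSME1 and PSME2, and in those of 3 of the 38 other members in the table, PSMA4, PSMB4 and PSMG4. It was present in 3.57% of all 35116 windows of the same length, and in at least 1 window of 4.38% of the 27305 genes, the share to set beside counts of genes. In the windows shown, it began 4 bases before the start of PSMB8, 21 before that of PSMB10 and 28 before that of PSME2, and 5 bases after that of PSME1. The PSMB9 window held no such letters, whereas the TAP1 window beside it held 2 overlapping matches, in bases 117 to 126 and 123 to 132, and 2 κB matches, in bases 179 to 188 and 273 to 282. The κB site was present in 0 of the 5 inducible and 2 of the 38 other members' windows, PSMA4 and PSMA8, and in at least 1 window of 13.3% of all genes. The core of the antioxidant response element, TGACNNNGC, read by the NRF factors that raise proteasome genes under stress, was present in 3 of the 5 inducible members' windows and 12 of the 38 others', against 16.1% of all genes. These are matches of letters in short windows and do not show that a factor was bound.

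Library totals ranged from 14073186 to 31937334 counts, and a count of 3 corresponded to 0.0992 to 0.208 counts scaled to library size (CPM). Members took 0.423% to 0.504% of the counts in a library. Between the libraries of a group the chi-square per degree of freedom over genes was 5.24 in mock and 2.22 to 2.64 elsewhere, so the mock pair differed most. The 12 synovial and mesenchymal markers summed to 19560 to 29040 CPM, with COL1A2 highest and the lowest sums, 19560 and 19840 CPM, in the TNF + Tub B libraries, although PRG4, the lubricin gene of synovial lining cells, was at or near 0. Immune markers, checked because leukocytes hold inducible subunits at rest, summed to 1.92 to 3.40 CPM over 8 genes in every library, with 0 to 4 of them at 0 and CD3E, MS4A1 and LYZ at or near 0. Mitochondrial genes took 3.10% and 3.12% of counts in the TNF libraries and more in the others, up to 3.80%. The part of these measures in the results was not tested.

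To see which members respond to TNF, TNF libraries were compared with mock libraries. The 5 inducible members rose, by 2.39-fold to 10.5-fold, and the constitutive catalytic subunits that they replace moved by at most 0.21 on the log2 scale. Over all 16647 genes tested, 17.2% were called higher and 13.3% lower in this comparison at an adjusted p below 0.05. PSMB9, the β1i subunit, was at 6.57 and 7.16 CPM in the mock libraries and at 63.0 and 81.7 CPM in the TNF libraries. It rose by 3.40 ± 0.13 on the log2 scale (SE, adjusted p = 4.17e-13, edgeR). PSMB8, the β5i subunit, was at 25.1 and 25.8 CPM in mock and 81.7 and 85.8 CPM with TNF. It rose by 1.72 ± 0.06 (adjusted p = 3.93e-13). PSMB10, the β2i subunit, went from 5.15 and 4.34 CPM to 18.7 and 20.6 CPM. Its log2 change was 2.02 ± 0.12 (adjusted p = 1.8e-10). In each of these genes the TNF libraries stood above both mock libraries, as they did in 31.9% of all genes tested, a common outcome with 2 libraries a group.

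The PA28 genes rose less in fold but from a higher level. PSME1 was at 45.6 and 51.9 CPM in mock and 113.5 and 118.2 CPM with TNF, a log2 change of 1.26 ± 0.06 (adjusted p = 2.52e-11, edgeR). PSME2 was at 59.6 and 60.7 CPM in mock and 163 and 170.3 CPM with TNF, a log2 change of 1.47 ± 0.05 (adjusted p = 7.26e-14). Again the groups did not overlap. In a bulk library more cells with a transcript and more transcript per cell cannot be told apart.

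**Figure D1:**
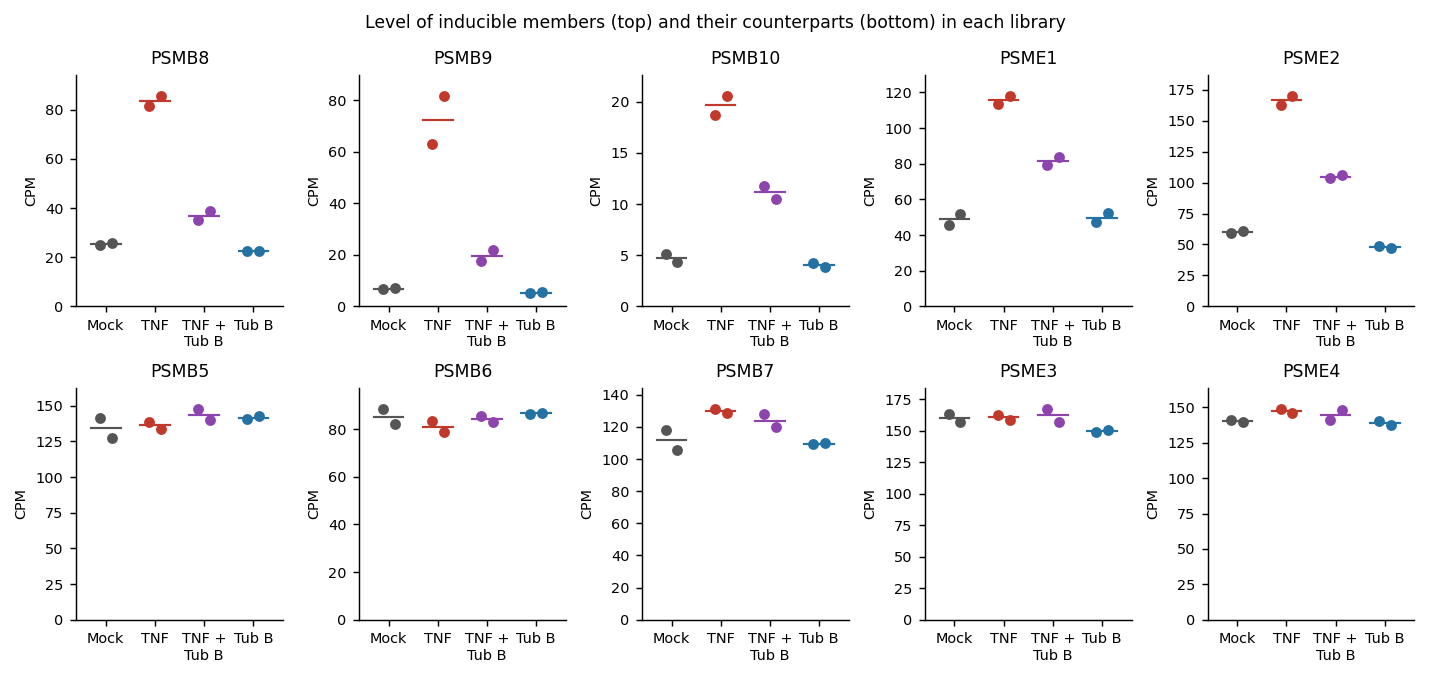
Level in CPM (counts scaled to library size, linear axes from 0) of 10 genes in each of the 8 libraries; points are libraries and bars are means of 2. PSMB8, PSMB9, PSMB10, PSME1 and PSME2 (top) are highest in both TNF libraries and intermediate in both TNF + Tub B libraries, whereas PSMB5, PSMB6, PSMB7, PSME3 and PSME4 (bottom) lie in narrow ranges.

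The counterparts of the inducible genes showed no change of that size. PSMB5, the β5 subunit and target of bortezomib, was at 141.7 and 127.7 CPM in mock and 138.6 and 133.9 CPM with TNF. Its log2 difference was 0.01 with a 95% interval of −0.10 to 0.12. PSMB6, the β1 subunit, was at 88.5 and 82.0 CPM in mock and 83.2 and 78.9 CPM with TNF, a difference of −0.07 with an interval of −0.18 to 0.04 (adjusted p = 0.319, edgeR), which was called lower with library totals (−0.15) and with upper-quartile scaling (−0.14). For both genes the groups overlapped. PSMB7, the β2 subunit, was at 117.9 and 105.7 CPM in mock and 131.2 and 128.4 CPM with TNF and rose by 0.21 ± 0.05 (adjusted p = 0.00527). It no longer passed without Mock replicate 2 (adjusted p = 0.065), without TNF replicate 1 (adjusted p = 0.0573) and with library totals (adjusted p = 0.0714). The other caps did not pass. PSME3, which forms a nuclear cap called PA28 gamma, was at 163.7 and 157.3 CPM in mock and 162.9 and 158.3 CPM with TNF, and its interval ran from −0.10 to 0.10. PSME4, the PA200 cap, was at 141.2 and 139.8 CPM in mock and 148.9 and 146 CPM with TNF, with an interval of −0.02 to 0.16.

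Of the 42 other tested members, 7 were called higher and 1 lower with TNF, a share near that of all genes for higher calls and below it for lower calls. Their median log2 change was 0.04, against −0.00 over all genes tested. Scaling by library totals turned the split to 4 and 5, where 12.9% of all genes were called higher and 20.9% lower, and upper-quartile scaling to 6 and 5, where the shares were 13.4% and 20.2%, with the median of all genes moving from −0.00 to −0.08 and −0.07. Of the higher calls, 4 were among the 7 tested subunits of the alpha ring. PSMA6 was at 5.69 and 6.03 CPM in mock and 8.66 and 9.68 CPM with TNF and rose by 0.64 ± 0.13 (adjusted p = 0.000955, edgeR). PSMA3 was at 49.7 and 49.6 CPM in mock and 64.5 and 69.8 CPM with TNF and rose by 0.43 ± 0.06 (adjusted p = 6.84e-06). PSMA4 rose by 0.41 and PSMA5 by 0.16 on the log2 scale. These subunits form the gate of the core and the surface that caps bind. The call of PSMA5 was lost without Mock replicate 2 (adjusted p = 0.0686), TNF replicate 1 (0.112) or TNF replicate 2 (0.0743). Of the beta ring, PSMB2 rose by 0.20.

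Of the 6 ATPases and the 11 other 19S subunits, 0 passed the edgeR test with TMM scaling for TNF against mock. Of all genes, this test called 17.2% higher and 13.3% lower, the shares to set beside the counts of subunits and chaperones here. DESeq2 and limma-voom also gave 0 calls, and at an unadjusted p below 0.05 there were 0 ATPases and 1 other subunit. Their log2 changes ran from −0.02 to 0.05 in the ATPases and from −0.10 in PSMD6, a lid subunit, to 0.12 in PSMD12, another lid subunit. PSMD6 and PSMD4, a ubiquitin receptor, were called lower by edgeR with library totals (−0.17 and −0.15, adjusted p = 0.0171 and 0.0261) and with upper-quartile scaling (−0.16 and −0.14, adjusted p = 0.0245 and 0.0292), and PSMD2, a scaffold of the 19S base, was called higher without Mock replicate 1 (0.18, adjusted p = 0.00515). Of the 4 chaperones of 20S assembly 0 passed with these 3 tools and 1 had an unadjusted p below 0.05, PSMG1 at −0.23 (adjusted p = 0.0534, edgeR). PSMG1 was called lower with DESeq2 size factors (adjusted p = 0.0447), library totals (−0.30, 0.0132), upper-quartile scaling (−0.29, 0.0126), the stricter filter on low counts (0.0492), the replicate block (0.0423) and without Mock replicate 2 (0.0275) or TNF replicate 1 (0.0291). PSMD5, a chaperone of 19S assembly, fell by 0.15, a call lost when any of the 4 libraries compared was left out (adjusted p = 0.0578 to 0.193). PSMF1, an inhibitor of the core, was at 0.11 and did not pass. PSMC3IP, the gene matched by name alone, was at 11.9 and 9.36 CPM in mock and 17 and 17.4 CPM with TNF and rose by 0.66 ± 0.10 (adjusted p = 6.16e-05). Under the 15 alternatives of analysis tried, 4 of the 8 calls among other members held in each, those of PSMA3, PSMA4, PSMA6 and PSMC3IP, as did all 5 calls of inducible members.

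**Figure D2:**
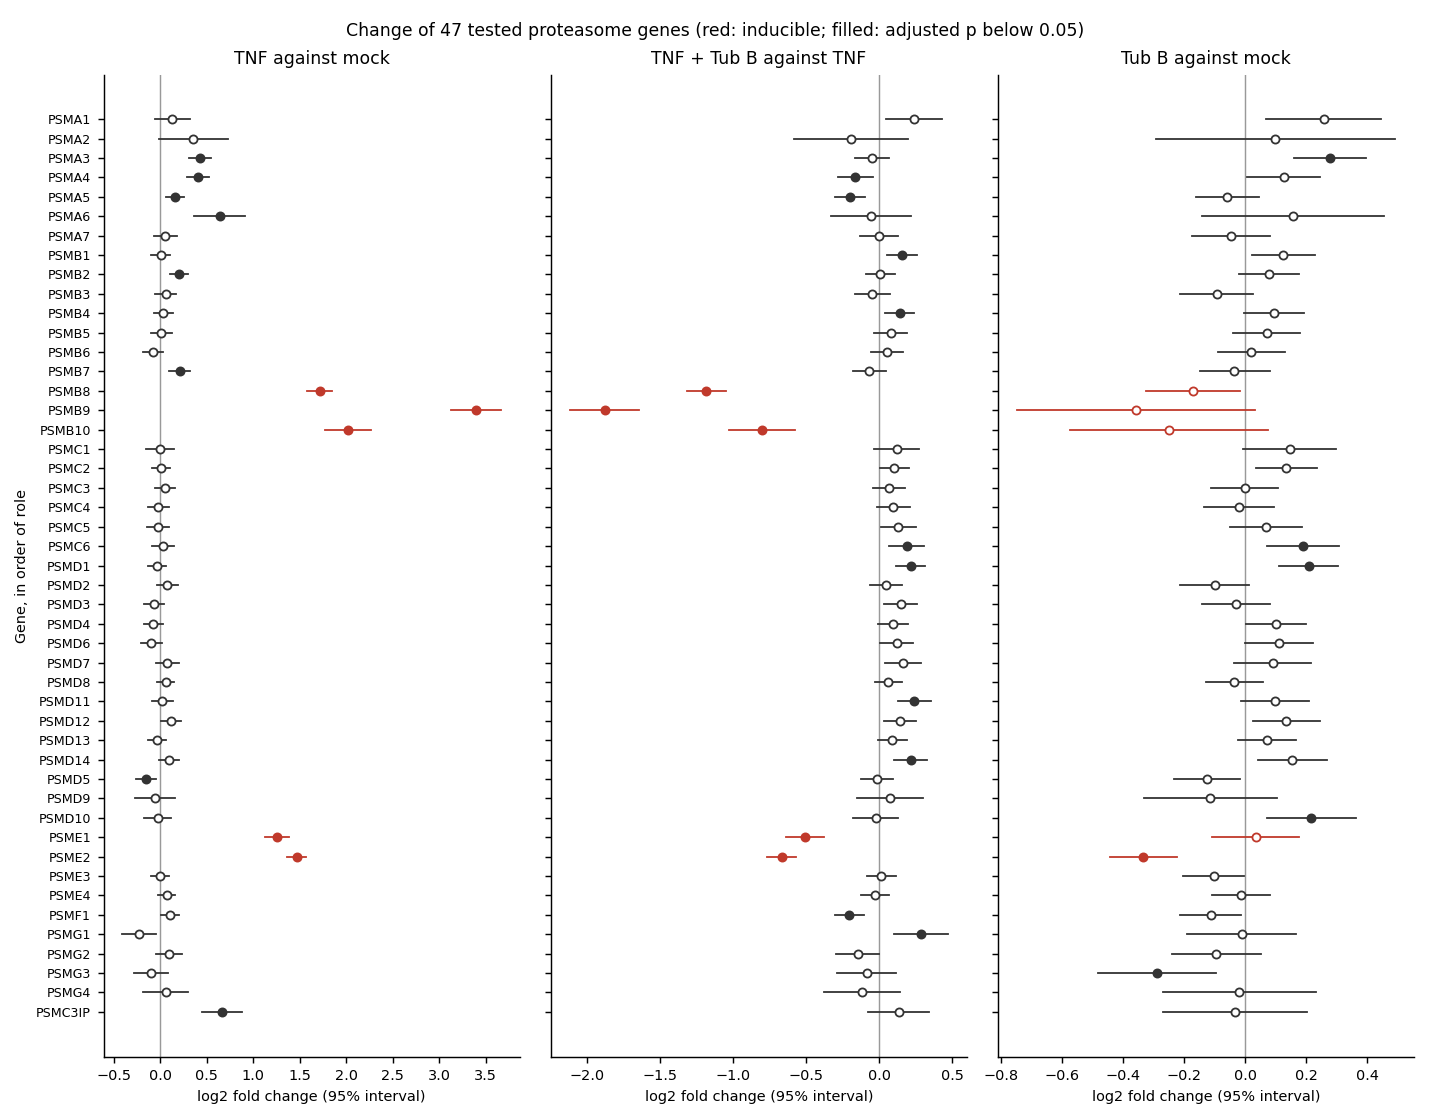
Log2 fold change with its 95% interval for the 47 tested members in 3 comparisons, in order of role; red marks inducible members, filled points an adjusted p below 0.05, and the horizontal scales differ between panels. Red points lie right of 1.2 with TNF and left of −0.5 when Tub B was added, and points of other members lie within 0.7 of 0.

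The effect of adding Tub B to TNF was read from TNF + Tub B against TNF libraries, a comparison that shares the TNF libraries with the one above. The 5 inducible members fell, and none returned to the mock level. PSMB9 was at 17.5 and 21.7 CPM in the TNF + Tub B libraries and fell by 1.88 ± 0.11 on the log2 scale (SE, adjusted p = 1.58e-09, edgeR). PSMB8 was at 35 and 38.7 CPM and fell by 1.19 ± 0.06 (adjusted p = 4.21e-10). PSMB10 was at 11.8 and 10.5 CPM and fell by 0.81 ± 0.11 (adjusted p = 2.42e-05). Each of these 3 catalytic genes had both TNF + Tub B libraries below both TNF libraries and above both mock libraries, which, taken separately, held for 31.5% and 32.2% of all genes tested. PSME1 was at 79.4 and 83.6 CPM and fell by 0.51 ± 0.06 (adjusted p = 7.97e-06), and PSME2 was at 103.5 and 106.1 CPM and fell by 0.67 ± 0.05 (adjusted p = 7.79e-09). Of all genes, 7.11% were called higher and 13.1% lower here. Under all 15 alternatives the falls of the 5 genes passed, with PSME1 between −0.55 and −0.39 and PSMB9 between −2.07 and −1.69.

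Against mock, TNF + Tub B libraries were higher in all 5 inducible members, by 0.53 in PSMB8, 0.75 in PSME1, 0.80 in PSME2, 1.22 in PSMB10 and 1.51 in PSMB9 on the log2 scale. Each passed the edgeR test, where 15.0% of all genes were called higher and 13.9% lower. Of the others, 15 were called higher and 1 lower, a larger share of higher calls than among all genes. PSMC3IP (0.79), PSMA6 (0.58), PSMA3 (0.38) and PSMA1 (0.37) led them, and leaving out TNF + Tub B replicate 1 ended the calls of PSMA6 (adjusted p = 0.0666) and PSMA1 (0.0523). Of these 16 calls, 6 held under the 15 alternatives, those of PSMA3, PSMB2, PSMD11, PSMD12, PSMD14 and PSMC3IP. PSMB8 had the smallest remaining difference although its rise with TNF alone was larger than those of the PA28 genes.

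Among the 42 other tested members, 7 were called higher and 3 lower when Tub B was added to TNF. Their median change was 0.07, against −0.00 over all genes. This split depended on scaling: 24 were called higher and 0 lower with library totals, which moved the median of all genes to 0.12 and called 20.6% of them higher and 7.96% lower. Upper-quartile scaling gave 16 higher and 2 lower, against 10.4% and 10.7% of all genes. The shares with TMM were 7.11% and 13.1%. Under the TMM scaling used, the higher calls were PSMG1, PSMD11, PSMD1, PSMD14, PSMC6, PSMB1 and PSMB4. PSMG1, a chaperone of alpha ring assembly, was at 21.2 and 18.3 CPM with TNF and 24.3 and 24.1 CPM with TNF + Tub B, a log2 change of 0.29 ± 0.09 (adjusted p = 0.0297, edgeR). PSMD11, a scaffold of the 19S lid, was at 94.3 and 89.2 CPM with TNF and 112 and 104.8 CPM with TNF + Tub B, a change of 0.24 ± 0.05 (adjusted p = 0.00348). PSMD14, the deubiquitinase of the lid, was at 86.2 and 82.8 CPM with TNF and 98.7 and 97.7 CPM with TNF + Tub B, a change of 0.22 ± 0.05 (adjusted p = 0.00767). In these 3 genes the groups did not overlap, as in 28.1% of all genes, which lay higher without overlap.

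The lower calls were PSMF1 (−0.20), PSMA5 (−0.20) and PSMA4 (−0.16). Of these 10 calls, 0 held under every alternative. PSMG1 was lost without TNF replicate 2 (adjusted p = 0.248), TNF + Tub B replicate 1 (0.153) or TNF + Tub B replicate 2 (0.117), and PSMF1 without TNF replicate 2 (0.0801). PSMD11 and PSMD14 were lost without TNF replicate 2 (0.0592 and 0.0875) and without TNF + Tub B replicate 1 (0.0897 and 0.0766), and PSMD1 without TNF + Tub B replicate 2 (0.0781). PSMA5 was lost without TNF replicate 1 (0.0625) or TNF + Tub B replicate 2 (0.0777). PSMC6 and PSMA4 were lost without TNF replicate 2 (0.211 and 0.445), TNF + Tub B replicate 1 (0.0596 and 0.0656) or TNF + Tub B replicate 2 (0.219 and 0.262). PSMB1 and PSMB4 were lost when any of the 4 libraries was left out (adjusted p = 0.0699 to 0.268 and 0.0633 to 0.327).

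Counterparts of the inducible genes again lay in narrow ranges when Tub B was added to TNF. PSMB5 was at 147.8 and 139.8 CPM with TNF + Tub B, PSMB6 at 85.4 and 83.2 CPM and PSMB7 at 128.1 and 119.7 CPM. Their log2 differences from TNF were 0.08, 0.05 and −0.07, and none passed, although PSMB5 (0.20) and PSMB6 (0.17) were called higher with library totals. Both TNF + Tub B libraries lay above both TNF libraries in PSMB5, as in 28.1% of all genes. In PSMB7 they lay below, as in 31.5% of all genes, and in PSMB6 the groups overlapped. PSME3, at 167.4 and 157.2 CPM, and PSME4, at 141.4 and 148.1 CPM, overlapped with their TNF libraries.

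Tub B alone was compared with mock. PSME2 was the inducible member that passed, at 48.5 and 46.9 CPM with Tub B against 59.6 and 60.7 CPM in mock, a fall of 0.33 ± 0.05 on the log2 scale (SE, adjusted p = 0.00036, edgeR), where 4.83% of all genes were called higher and 7.91% lower. Its partner PSME1 was at 47.2 and 52.1 CPM against 45.6 and 51.9 CPM, overlapping, with a 95% interval of −0.11 to 0.18. PSMB8 was at 22.4 and 22.7 CPM, PSMB9 at 5.23 and 5.42 CPM and PSMB10 at 4.25 and 3.85 CPM. Both Tub B libraries lay below both mock libraries in these 3 genes, but their log2 differences of −0.17, −0.36 and −0.25 did not pass (adjusted p = 0.142, 0.237 and 0.336). With PSME2 they make 4 of 5 inducible members without overlap, and 4337 of the 16647 genes tested lay lower without overlap.

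Of the 42 others, 4 were called higher and 1 lower with Tub B alone, against 13 and 0 with library totals and 7 and 0 with upper-quartile scaling. Of all genes, TMM scaling called 4.83% higher and 7.91% lower, library totals 9.19% and 5.21%, and upper-quartile scaling 6.06% and 6.67%. Their median change was 0.07, against 0.00 over all genes. PSMA3 was at 60.2 and 60.1 CPM with Tub B, above both mock libraries, as were 26.7% of all genes tested. It rose by 0.28 ± 0.06 (adjusted p = 0.00298, edgeR), a call that held under the 15 alternatives. PSMD10, the oncoprotein gankyrin and a 19S chaperone, was at 38.6 and 42.7 CPM in mock and 44.6 and 49.6 CPM with Tub B, a change of 0.22 ± 0.07 (adjusted p = 0.0463). It was lost without Mock replicate 1 (adjusted p = 0.351) or Tub B replicate 2 (0.408). PSMG3, a chaperone of the alpha ring, was at 16 and 15.6 CPM in mock and 13.1 and 12.8 CPM with Tub B, a change of −0.29 ± 0.09 (adjusted p = 0.0489), lost when any of the 4 libraries was left out (0.0692 to 0.233). PSMD1, a scaffold of the 19S base, rose by 0.21 and PSMC6, an ATPase, by 0.19. The former was lost without Tub B replicate 2 (0.098) and the latter when any of the 4 libraries was left out (0.0504 to 0.3).

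Whether Tub B altered the TNF response itself was tested as the interaction, the response with Tub B minus that without. TNF raised the 5 inducible genes in the presence of Tub B as well, by 1.63-fold in PSMB8, 1.64-fold in PSME1, 2.19-fold in PSME2, 2.76-fold in PSMB10 and 3.66-fold in PSMB9, and each passed where 14.3% of all genes were called higher. The responses with and without Tub B rest on different libraries. On the log2 scale the share of the response kept was 41.0% in PSMB8, 55.1% in PSMB9, 56.8% in PSME1, 72.5% in PSMB10 and 77.2% in PSME2. The interaction passed for PSMB9 (−1.53 ± 0.22, adjusted p = 0.000359, edgeR), PSMB8 (−1.01 ± 0.10, adjusted p = 8.79e-06), PSME1 (−0.54 ± 0.09, adjusted p = 0.0015) and PSME2 (−0.34 ± 0.07, adjusted p = 0.00901). For PSMB10 it was −0.56 with a 95% interval of −0.96 to −0.16 and did not pass (adjusted p = 0.124, and 0.0611 to 0.378 over the alternatives). Of all genes, 3.20% passed with a lower and 1.04% with a higher response.

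The call of PSME2 was lost without TNF replicate 2 (adjusted p = 0.0764), TNF + Tub B replicate 1 (0.0605) or Tub B replicate 1 (0.07). Those of PSMB8, PSMB9 and PSME1 held under all 18 alternatives. Among the others, the interaction passed for 2 alpha subunits, PSMA3 (−0.33, adjusted p = 0.0224) and PSMA4 (−0.29, adjusted p = 0.0481). The call of PSMA3 was lost with library totals and with the DESeq2 test, and that of PSMA4 with those, DESeq2 size factors, upper-quartile scaling and limma-voom. Both were lost when Mock replicate 1, TNF replicate 2 or any library with Tub B was left out (0.0553 to 0.166 and 0.0789 to 0.293). PSMA3 was at 64.8 and 64.5 CPM with TNF + Tub B, within the range of the TNF libraries, and PSMA4 was at 77.2 and 76.1 CPM in mock, 96.7 and 107.2 CPM with TNF, 93.5 and 87.9 CPM with TNF + Tub B and 81.7 and 85.7 CPM with Tub B. PSMC3IP showed no loss of response: it was at 18.7 and 18.9 CPM with TNF + Tub B and 10.4 and 10.7 CPM with Tub B, and its interaction of 0.17 did not pass. Of the other members, 7 were called higher and 1 lower for TNF + Tub B against Tub B, where 12.1% of all genes were called lower.

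**Figure D3:**
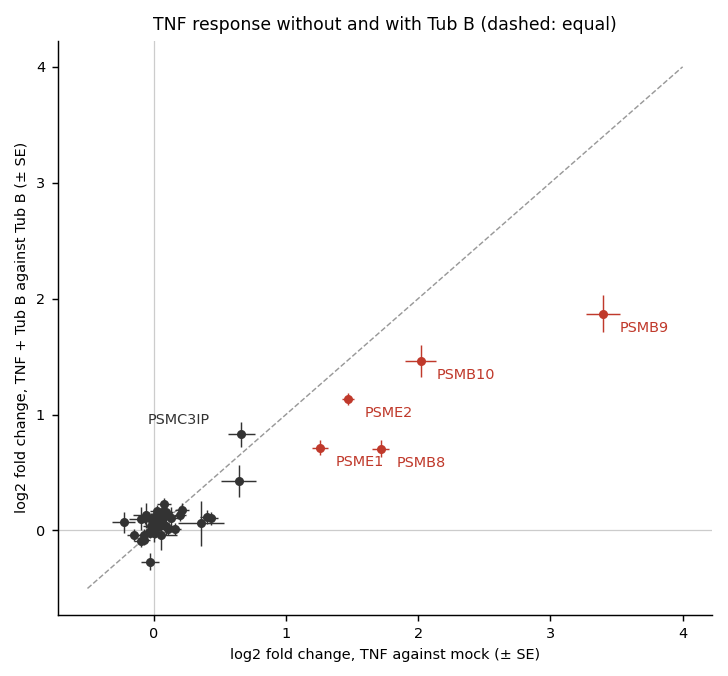
Log2 response to TNF without Tub B (horizontal, TNF against mock) and with Tub B (vertical, TNF + Tub B against Tub B) for the 47 tested members, with SE bars; the dashed line marks equal responses. The 5 inducible members (red) lie below the line and above 0, and PSMC3IP lies above it, with an interaction of 0.17 that did not pass.

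The balance of inducible and constitutive transcripts was read within each library, as the ratio of counts per kilobase of exon, which does not depend on library scaling. PSMB8 to PSMB5 stood at 0.104 and 0.119 in mock, 0.347 and 0.377 with TNF, 0.140 and 0.163 with TNF + Tub B and 0.0936 and 0.0938 with Tub B. PSMB9 to PSMB6 stood at 0.0350 and 0.0412 in mock, 0.357 and 0.488 with TNF, 0.0967 and 0.123 with TNF + Tub B and 0.0285 and 0.0294 with Tub B. PSMB10 to PSMB7 stood at 0.0421 and 0.0396 in mock, 0.138 and 0.155 with TNF, 0.0888 and 0.0849 with TNF + Tub B and 0.0375 and 0.0338 with Tub B. The constitutive transcript was the more abundant of each pair in every library, also with TNF. Ratios depended on the length used: with the longest transcript in place of all exons, PSMB9 to PSMB6 stood at 0.246 and 0.337 with TNF. As a share of the pair over all exons, PSMB9 went from 3.38% and 3.95% in mock to 26.3% and 32.8% with TNF. PSMB10 reached 12.1% and 13.4%. The caps differed in this: PSME1 plus PSME2 to PSME3 plus PSME4 stood at 0.927 and 1.04 in mock, 2.37 and 2.53 with TNF, 1.59 and 1.70 with TNF + Tub B and 0.941 and 0.993 with Tub B.

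In each of the 4 ratios the groups with TNF lay above those without, and TNF + Tub B lay between TNF and mock. Over the 4 libraries with TNF against the 4 without, the mean log2 ratio differed by 1.19, 2.69, 1.56 and 1.04 in the order above, with p = 0.0286 for each in an exact two-sided permutation test, the smallest it can give (0.0286 after adjustment over the 4 ratios). The test pooled TNF with TNF + Tub B libraries, although their ratios did not overlap. The 4 tests share 1 split of the libraries, so they are not separate support. Their numerators are genes already shown above to rise in both groups with TNF. Full separation, and with it this p, was therefore known beforehand and adds no support for the rise. With 2 libraries against 2, p cannot go below 0.333, so TNF and TNF + Tub B ratios were not tested. Without any 1 library the differences ran from 0.962 to 1.44, 2.29 to 3.07, 1.41 to 1.70 and 0.928 to 1.15, and p was 0.0571, the smallest that 3 against 4 allow. Inducible transcripts took 3.14% and 3.49% of all member counts in mock, 8.91% and 9.84% with TNF, 5.03% and 5.41% with TNF + Tub B and 2.88% and 2.94% with Tub B.

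**Figure D4:**
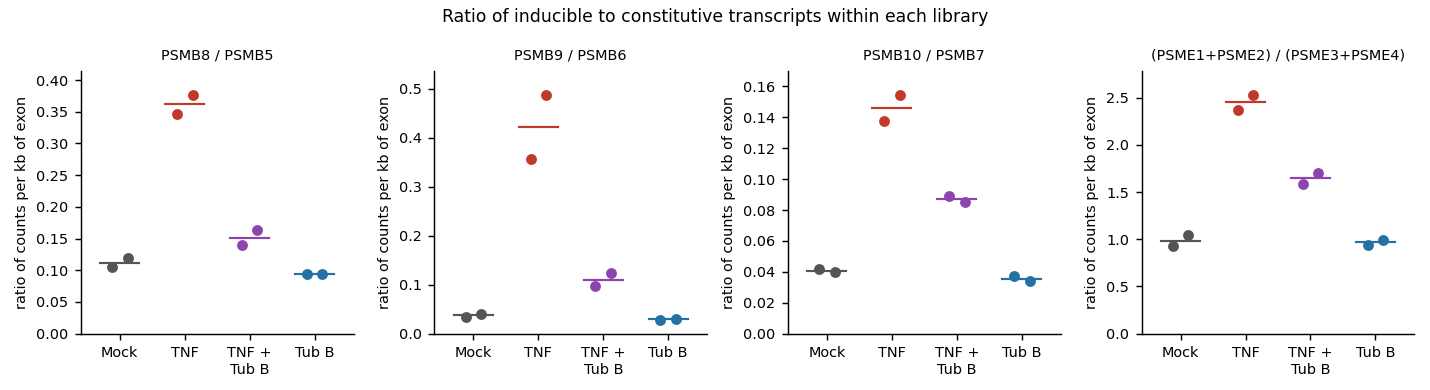
Ratio of inducible to constitutive transcripts (counts per kilobase of exon, linear axes from 0) in each library; points are libraries and bars are means of 2. The 3 catalytic ratios stay below 1 in every library, and the PA28 ratio goes from about 1 in mock to 2.37 and 2.53 with TNF.

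Levels could be compared between genes only per length, as CPM per kilobase of exon from the GENCODE annotation of GRCh38. PSMD2, a scaffold of the 19S base, was highest of the members in mock at 150.1 ± 14.2 (SD, n = 2), followed by PSMA7, an alpha subunit, at 95.2 ± 5.7. In mock the inducible genes stood in the order PSME1 at 27.4 ± 2.5, PSME2 at 16.8 ± 0.23 and PSMB8 at 8.49 ± 0.15. Below them were PSMB10 at 2.56 ± 0.31 and PSMB9 at 2.24 ± 0.14. There the libraries of PSMB10 (2.78 and 2.34) lay narrowly above those of PSMB9 (2.14 and 2.33). With TNF the inducible genes, in that order, were at 65.1 ± 1.9, 46.5 ± 1.4, 27.9 ± 0.97, 10.6 ± 0.71 and 23.6 ± 4.3. PSMB9 then stood above PSMB10 and below PSMB8 by about its own SD. With TNF + Tub B, PSMB9 at 6.38 ± 0.96 and PSMB10 at 6.02 ± 0.48 differed by less than their spread. With Tub B alone the order was that of mock, with PSMB10 at 2.19 ± 0.15 and PSMB9 at 1.73 ± 0.05. The order of these 2 genes depended on the length used: with the longest transcript in place of all exons, PSMB10 and PSMB9 stood at 3.90 and 2.57 in mock, 16.2 and 27.0 with TNF, and 9.16 and 7.32 with TNF + Tub B, where PSMB10 was then the higher.

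Among the members ranked by level per length, PSME1 went from rank 16 in mock to 7 with TNF, PSME2 from 22 to 11, PSMB8 from 36 to 18, PSMB9 from 43 to 21 and PSMB10 from 42 to 35. PSMB5, PSMB6 and PSMB7 stood at 76.3 ± 5.6, 58.9 ± 3.2 and 62.6 ± 4.8 in mock. With the length of the longest transcript in place of all exons PSMB6 stood at 97.8 and PSMB7 at 114.1. Counts of some members are uncertain, because reads were not split by strand and exons overlap with other genes. This touches 34.8% of the exon bases of PSMB10, 20.6% of those of PSMB8, 75.8% of those of PSMC1, 34.6% of those of PSMA2 and 14.1% of those of PSMA6. Also touched are 30.7% in PSMD7, 29.9% in PSMC3IP, 24.7% in PSMA1, 22.65% in PSMD9, 19.5% in PSMC5 and smaller shares in others. PSMB8 and PSMB9 share exon bases with each other, and the overlaps of PSMB9 come to 5.66%. PSMB8-AS1, the antisense neighbour of PSMB8, had 16 and 7 counts in mock, 70 and 34 with TNF, 11 and 12 with TNF + Tub B and 12 and 7 with Tub B, which cannot be told apart from reads of PSMB8. Members with listed pseudogenes, such as PSME2 and PSMA6, may share reads with near-identical copies.

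Of 11 tested partners of the proteasome that the name rule does not reach, 2 rose with TNF, where 17.2% of all genes were called higher: KIAA0368, a scaffold of the 26S particle, by 0.35 and ADRM1, a ubiquitin receptor, by 0.14. The latter was lost when any of the 4 libraries compared was left out (adjusted p = 0.0702 to 0.139) and with library totals or upper-quartile scaling. Adding Tub B to TNF gave 1 lower call, AKIRIN2 (−0.19), which carries proteasomes into the nucleus, also lost when any of the 4 libraries was left out (0.121 to 0.176), where 13.1% of all genes were called lower. The split turned with scaling: library totals ended that call (adjusted p = 0.454, edgeR). They gave 5 higher calls, ADRM1, USP14, KIAA0368, TXNL1 and UBE3C, where 20.6% of all genes were called higher. Upper-quartile scaling gave 1, USP14, where 10.4% of all genes were called higher. Tub B alone gave 0 calls in edgeR and DESeq2, 1 in limma-voom and 3 at an unadjusted p below 0.05. Of all genes, edgeR called 4.83% higher and 7.91% lower with Tub B alone. POMP, the chaperone that completes the core and is needed for immunoproteasome assembly, was at 0.07 with TNF (adjusted p = 0.34) and −0.03 when Tub B was added (adjusted p = 0.711). Of 14 tested genes for ubiquitin, its activating enzymes and shuttles to the proteasome, 7 rose and 2 fell with TNF. Of all genes, 17.2% were called higher and 13.3% lower there. UBQLN2, a shuttle, rose by 0.59, UBA6, an activating enzyme, by 0.38 and UBB, a polyubiquitin gene, by 0.24. These 3 were also the genes called higher with library totals and with upper-quartile scaling, which each gave 3 higher and 2 lower. Of all genes, library totals called 12.9% higher and 20.9% lower with TNF, and upper-quartile scaling 13.4% and 20.2%. Adding Tub B to TNF gave 1 lower call in this list, UBA1 (−0.14), which was lost without TNF replicate 1 (0.165), TNF replicate 2 (0.101) or TNF + Tub B replicate 2 (0.167). Library totals gave 7 higher and 0 lower instead, and upper-quartile scaling 3 and 0. The shares of all genes called higher and lower were 20.6% and 7.96% with library totals, and 10.4% and 10.7% with upper-quartile scaling. The list's median was 0.11 with TNF and 0.01 for Tub B added to TNF.

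Of 11 regulators known to act on proteasome genes, 9 rose with TNF and 0 fell, where 17.2% of all genes were called higher and 13.3% lower, with a median log2 change of 1.01; 0 also fell with DESeq2, with limma-voom and at an unadjusted p below 0.05. Among the interferon branch, IRF1, which binds the interferon element, rose by 2.84 ± 0.09, STAT2 by 1.56 ± 0.08, IRF2 by 1.25 ± 0.08, NLRC5, the activator of class I genes, by 1.15 ± 0.06 and IRF9 by 1.01 ± 0.15. The NF-κB genes NFKB1 and RELA rose by 1.44 and 0.50. NFE2L1, which drives proteasome subunit genes when the particle is short, rose by 0.27 and NFE2L2 by 0.18. The enzymes that process NFE2L1, NGLY1 and DDI2, did not pass. The call of NFE2L2 was lost with library totals (adjusted p = 0.18), upper-quartile scaling (0.137) and the DESeq2 test (0.112), and without Mock replicate 1 (adjusted p = 0.112), TNF replicate 1 (0.0635) or TNF replicate 2 (0.137).

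When Tub B was added to TNF, 7 of the 11 regulators fell and 1 rose, where 13.1% of all genes were called lower and 7.11% higher. With library totals and with upper-quartile scaling 5 fell, since NFE2L1 and RELA no longer passed. STAT2 fell by 1.09 ± 0.07, IRF1 by 1.01 ± 0.08, NLRC5 by 0.99 ± 0.06, IRF2 by 0.62 and NFKB1 by 0.37 on the log2 scale. RELA (−0.14), NFE2L1 (−0.14) and NFE2L2 (0.17) passed narrowly. RELA and NFE2L2 were lost when any of the 4 libraries compared was left out (adjusted p = 0.0987 to 0.233 and 0.0713 to 0.316), and NFE2L1 without TNF replicate 2 (0.188), TNF + Tub B replicate 1 (0.119) or TNF + Tub B replicate 2 (0.0517). IRF9 (−0.33), NGLY1 and DDI2 did not pass. With Tub B alone, NFE2L2 rose by 0.29, a call lost without Tub B replicate 2 (0.0752). IRF9 was at −0.71 with Tub B alone, a call lost without Mock replicate 1 (0.0928), Tub B replicate 1 (0.0904) or Tub B replicate 2 (0.148). Of 10 genes of class I peptide supply and loading, 9 rose with TNF (median 0.98) and 8 fell when Tub B was added (median −0.49), against the same shares of all genes. Among them were TAP1 (2.69 and −1.50), TAP2 (1.83 and −1.01), ERAP1, a peptide-trimming enzyme (1.36 and −0.57), and B2M (0.87 and −0.40).

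**Figure D5:**
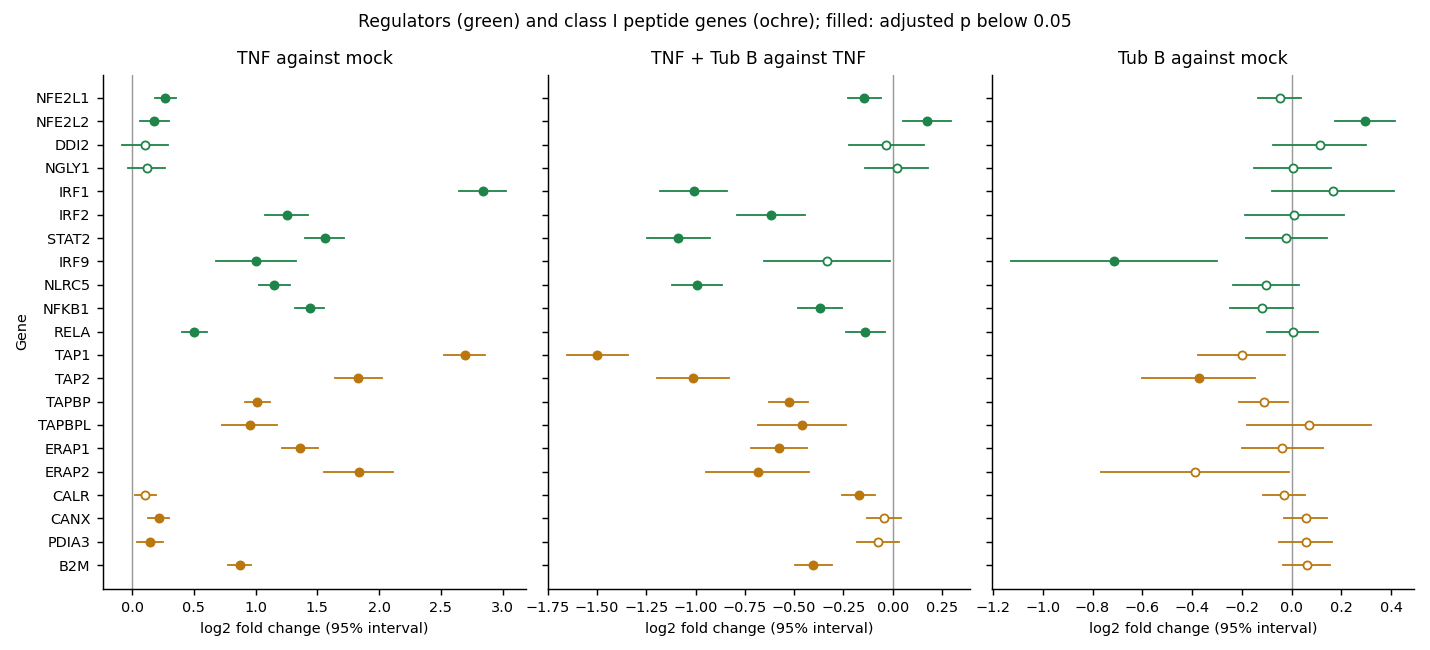
Log2 fold change with its 95% interval for 11 regulators of proteasome genes (green) and 10 class I peptide genes (ochre) in 3 comparisons; filled points have an adjusted p below 0.05 and the horizontal scales differ between panels. IRF1 and TAP1 lie farthest from 0 with TNF, and TAP1 and STAT2 when Tub B was added.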

How the data were processed

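Gene counts of 8 poly(A) RNA libraries were used as deposited by the authors, in 1 table with a column per library. The columns were matched to samples by the descriptions in the labels, with 0 columns unassigned. Per the labels' protocols, the NEB libraries were non-directional. STAR 2.7.0, featureCounts without a version, and the builds mm10 and hg19 without a role are named per the submitters' processing notes. Exon lengths and promoter windows come from GRCh38 annotation, so lengths may differ from those the authors counted over.

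The tools were edgeR 4.0.16, DESeq2 1.42.0 and limma 3.58.1 under R 4.3.3. The filter filterByExpr passed 16647 genes, and libraries were scaled by TMM. The quasi-likelihood model had a coefficient per group over all 8 libraries (4 residual and 13.1 prior degrees of freedom, common biological coefficient of variation 4.00%), with Benjamini-Hochberg adjustment over all genes tested. There were 6 contrasts, called at an adjusted p below 0.05. No pairing of libraries by replicate number was seen: deviations of equal numbers correlated at −0.048 to 0.047. Each tested gene counted alike there, so noise of genes with few counts may hide a modest pairing. The steps were tested on simulated counts.

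Values in every library were given for the inducible members, their counterparts and the 3 other called members with the largest changes in each of 3 comparisons. PSMA4, NFE2L2 and others named by their calls were added after their values were seen. One gene of the regulator list is not reported here, and the list's counts leave it out. The members, lists and tests were chosen with earlier results of these data known. Alternatives were other scalings, filters and tests, a stricter threshold, a replicate term, thinning to the smallest library, fits of only the groups compared, other gene lengths and omission of single libraries, where the fit assumes that the lone library of its group varies like the others. Floors cover counting error only.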

Additional observations from a re-analysis of the deposited data

Results flagged for a closer look

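The results below were singled out because the interaction test found that the response to TNF differed between cells with and without Tub B. Their interaction values, on the log2 scale, were −1.53 in PSMB9, −1.01 in PSMB8, −0.54 in PSME1, −0.34 in PSME2, −0.33 in PSMA3 and −0.29 in PSMA4. Responses were smaller with Tub B in each of them. For PSMA3, TNF + Tub B against TNF was −0.05 (adjusted p = 0.591, edgeR), and Tub B against mock was 0.28. The interaction calls of PSMA3, PSMA4 and PSME2 were lost when some single libraries were left out. That of PSMA3 was also lost with library totals and the DESeq2 test, and that of PSMA4 with these, DESeq2 size factors, upper-quartile scaling and limma-voom.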

How the results depend on the processing

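Calls of inducible members were the same in number under every alternative, apart from the interaction when single libraries were left out (3 to 4 of 5). No called result of a member changed direction. Counts of other members called moved as follows. With library totals they were 4 higher and 5 lower for TNF against mock, 24 and 0 for TNF + Tub B against TNF and 13 and 0 for Tub B against mock, with 0 lower for TNF + Tub B against mock and for the interaction. With upper-quartile scaling they were 5 lower with TNF, 16 higher for TNF + Tub B against TNF, 7 higher and 0 lower for Tub B against mock, 3 higher for TNF + Tub B against Tub B and 1 lower for the interaction. These scalings move all genes together by construction. DESeq2 size factors gave 2 lower with TNF and 1 lower for the interaction. The DESeq2 test gave 0 lower with TNF, 3 higher for TNF + Tub B against TNF, 2 higher and 0 lower for Tub B against mock, 4 higher for TNF + Tub B against Tub B, 0 lower for TNF + Tub B against mock and 0 lower for the interaction, and limma-voom gave 1 lower for the interaction. At an adjusted p below 0.01 they were 0 lower with TNF, 3 higher for TNF + Tub B against TNF, 2 higher and 0 lower for Tub B against mock, 2 higher for TNF + Tub B against Tub B, 0 lower for TNF + Tub B against mock and 0 lower for the interaction. With no filter they were 0 lower with TNF, 4 higher for TNF + Tub B against TNF and 2 higher and 0 lower for Tub B against mock, and a filter of 1 CPM and 30 counts gave 2 lower with TNF. A replicate block gave 2 lower with TNF. Its other counts stayed within 1.5 times, and no pairing by these numbers was seen above. Fits of only the groups compared gave 12 higher for TNF + Tub B against TNF and 2 higher and 0 lower for Tub B against mock. Thinning gave 0 lower with TNF and 2 higher and 0 lower for Tub B against mock. The cause of the moves under other tests and fits was not tested.

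Leaving out each library gave 5 to 8 higher and 0 to 1 lower for TNF against mock, 1 to 5 higher and 1 to 2 lower for TNF + Tub B against TNF, 1 to 4 higher and 0 to 1 lower for Tub B against mock, 1 to 5 higher and 0 to 1 lower for TNF + Tub B against Tub B, 10 to 18 higher and 0 to 1 lower for TNF + Tub B against mock, and 0 to 2 higher and 0 to 2 lower for the interaction. The difference in mean log2 ratio between libraries with and without TNF then ran from 0.962 to 1.44 for PSMB8 to PSMB5, 2.29 to 3.07 for PSMB9 to PSMB6, 1.41 to 1.70 for PSMB10 to PSMB7 and 0.928 to 1.15 for the PA28 genes. For TNF + Tub B against TNF, 0 of the 10 calls among other members held under every alternative, against 4 of 8 for TNF against mock. The cause of this difference was not tested.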
